A study of Homo sapiens with 12 samples.

Results

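BARX2, EBF3, ZBTB16 and DACH1 are 4 genes for transcription factors out of the 57820 gene identifiers counted in each of 12 RNA-seq libraries of PLC/PRF/5, a human hepatoma cell line of epithelial cells. The 4 were chosen by their counts: BARX2, EBF3 and ZBTB16 because they were higher in both HKDC1 knockout lines than in control cells and stayed high after HKDC1 was put back, and DACH1 because it was lower. All 4 passed the filter on low counts that left 20559 genes to test. Because these differences from control chose the genes, they are given as a description, and no test of them is used as support. Differences between the lines, between libraries of different number, and in genes outside the 4 were not used in the choice and were tested.

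The study asked what the hexokinase domain protein HKDC1 does in liver cancer cells. The groups, by the sample titles, were KO1 (knockout line 1, 2 libraries), KO1_RES (line 1 with HKDC1 restored, 2 libraries), KO2 (knockout line 2, 2 libraries), KO2_RES (line 2 with HKDC1 restored, 2 libraries) and control (wild type for HKDC1, 4 libraries). The knockout and rescue libraries also carry a number, 1 or 2, within each group. Nothing in the labels tells if a line is 1 clone, which guide made it, if each library is a culture of its own, or how much oxygen the cells had. The p-values here measure the spread between these libraries alone, part of which may be technical, and a difference shared by both lines cannot be told apart from other ways in which both lines differ from the control cells. In 4 libraries (KO1 number 2, KO2 number 2, KO1_RES number 1 and KO2_RES number 1) the genotype field names another group than the title, and in 8 they match.

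The libraries held 42609910 to 68040103 counts over genes in knockout cells, 36075411 to 60154638 in rescue cells and 57333288 to 71853616 in control cells. In CPM, which are read counts scaled to library size, HKDC1 (ENSG00000156510.11, on chromosome 10) measured 153 and 146 in KO1, 1240 and 1540 in KO1_RES, 91.3 and 49.2 in KO2, 508 and 621 in KO2_RES, and 157, 154, 183 and 124 in the controls. HKDC1 RNA was thus lower than control in KO2 (log2 fold change -1.14, adjusted p = 0.0161; 0.124 without KO2 number 2) but not in KO1 (-0.05, adjusted p = 0.92), so KO1 and KO2 stand below as the labels' names. Controls 1 and 2 stood apart from controls 3 and 4: albumin (ALB), the main secreted protein of hepatocytes, had 907 and 822 CPM in the first pair and 23.1 and 28.2 CPM in the second. The values of the 4 genes are therefore given in every control.

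The 4 proteins bind DNA through different domains. BARX2 is a homeobox factor of the Bar class that in mice takes part in muscle precursor fusion and in the control of cell adhesion genes. EBF3 is a helix-loop-helix factor of the early B-cell factor family, needed in the developing nervous system. ZBTB16, also called PLZF, is a zinc finger repressor with a BTB domain that recruits corepressors, is readily induced by glucocorticoids, and is fused to the retinoic acid receptor in some acute promyelocytic leukaemias. DACH1 is a Dachshund protein that works with EYA proteins and with corepressors, and is known as a brake on growth in several tumour types. None of the 4 belongs to the core set of factors that maintain the hepatocyte state.

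Start regions are shown for EBF3 and DACH1, whose RNA lay near the limit of detection on one side of the comparison with control and well above it on the other. RefSeq (GRCh38.p14) promoters were matched for 2 of the 4 genes, EBF3 and DACH1, and not for BARX2 and ZBTB16. The 250 bases before the EBF3 start (chr10:129964275-129964524, minus strand) are shown 5′ to 3′ in lower case, with capitals marking a CArG box, the site type bound by serum response factor, and a match to CCCNNGGG, the palindromic core bound by EBF proteins. For DACH1, the 250 bases before the start (chr13:71867205-71867454, minus strand) had no match and so carry no capitals, and the short DACH1 site (chr13:71867177-71867198, minus strand) lies just after the start with capitals marking CTTTGAT, the TCF/LEF core through which beta-catenin acts.
EBF3 promoter: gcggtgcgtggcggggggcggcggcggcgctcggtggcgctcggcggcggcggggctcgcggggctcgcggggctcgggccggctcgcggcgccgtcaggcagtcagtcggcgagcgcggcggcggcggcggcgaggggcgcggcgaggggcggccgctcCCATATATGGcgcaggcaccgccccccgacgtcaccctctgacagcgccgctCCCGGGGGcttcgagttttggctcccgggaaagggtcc
DACH1 promoter: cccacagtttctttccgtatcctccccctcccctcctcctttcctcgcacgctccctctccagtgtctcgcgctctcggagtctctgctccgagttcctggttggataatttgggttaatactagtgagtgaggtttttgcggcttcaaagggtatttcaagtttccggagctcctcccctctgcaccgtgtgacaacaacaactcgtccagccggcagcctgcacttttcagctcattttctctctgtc
DACH1 site: ctctcaatCTTTGATcaatgta
The EBF3 stretch held 46 CpG dinucleotides and 81.2% G and C, against medians of 11 and 58% over 35114 RefSeq promoters, and 99.6% of those promoters had fewer CpGs. The DACH1 stretch held 12 CpGs and 54% G and C. Over all promoters, searched on both strands from 250 bases before to 50 after the start, a CArG box was found in 1.29%, CCCNNGGG in 19.1% and CTTTGAT in 2.62%. The capitals in the EBF3 stretch begin 90 and 38 bases before the start, and the DACH1 match begins at base 15 after it. Neither window held the TATA box TATAAA, which was in 11.5% of promoters. Nor did either hold CACGTG, the E-box of the Myc and MondoA kind, found in 7.26% of promoters. AGAACA, a part of the site bound by the glucocorticoid receptor, was found in 14.8% of promoters and was also in neither. The full site was not searched. The matches describe letters only, and CCCNNGGG can overlap other GC-rich motifs.

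**Figure D1:**
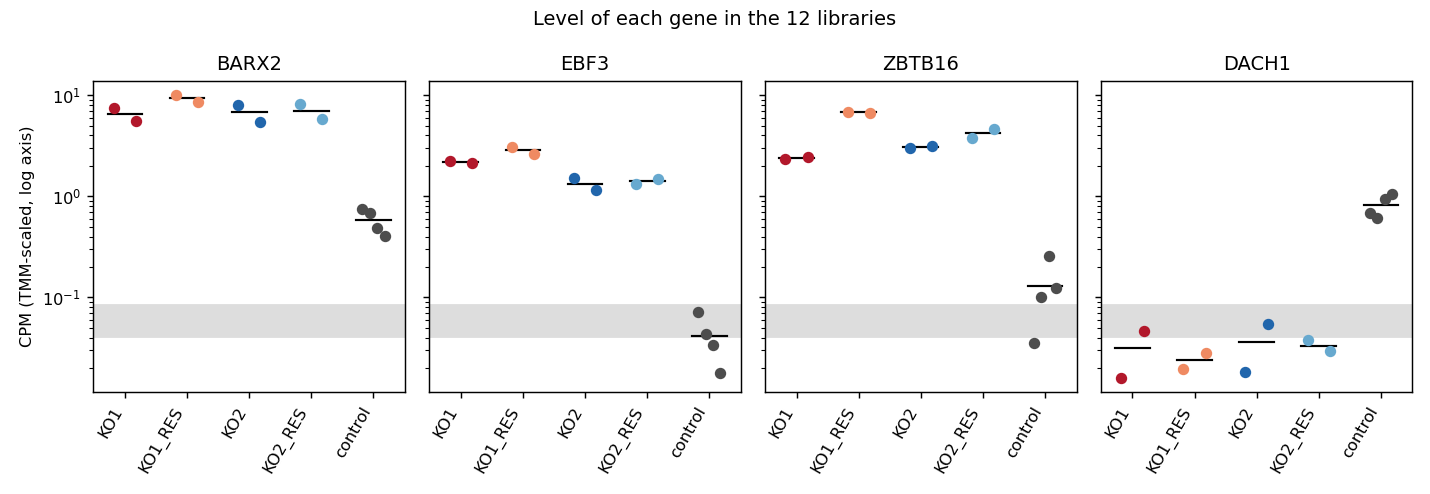
TMM-scaled CPM (log axis) of BARX2, EBF3, ZBTB16 and DACH1 in each of the 12 libraries, with points for libraries, bars for group means and a grey band for the CPM worth of 3 counts (0.0407 to 0.0848, by library). BARX2, EBF3 and ZBTB16 lie above every control in all 8 knockout and rescue libraries, and DACH1 lies below every control in all 8.

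BARX2 was about an order of magnitude higher in every knockout and rescue library than in the controls, where it was low but measured. BARX2 (ENSG00000043039.5, chromosome 11) was at 7.52 and 5.57 CPM in KO1, 10 and 8.62 in KO1_RES, 8.07 and 5.48 in KO2, 8.21 and 5.85 in KO2_RES, and 0.752, 0.686, 0.491 and 0.408 in the controls. The control values rest on 23 to 47 counts, and the 8 knockout and rescue values on 239 to 513 counts. The lowest of the 8 lay far above the highest control. Of all genes tested, 3.78% had all 8 of these libraries above all 4 controls, and the choice of genes used this contrast, so nothing is read from it. The log2 fold changes against control were 3.48 ± 0.28 in KO1, 3.99 ± 0.28 in KO1_RES, 3.53 ± 0.28 in KO2 and 3.58 ± 0.28 in KO2_RES (± SE of the fit). Over the 8 libraries BARX2 averaged 7.42 ± 1.65 CPM (SD, n = 8), against 0.584 ± 0.161 in the controls (SD, n = 4), and the ratio of summed counts was 12.4 (95% exact counting interval 10.4 to 14.7). In group order BARX2 was highest in KO1_RES, then KO2_RES, KO2 and KO1, and last in control. The libraries of KO2_RES, KO2 and KO1 overlapped, and those of KO1_RES and of control overlapped no other group.

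EBF3 was near the limit of detection in the control cells and clearly counted in every knockout and rescue library, with line 1 above line 2 by an amount that did not pass the test. EBF3 (ENSG00000108001.9, chromosome 10) had 140 and 92 counts in KO1, 158 and 92 in KO1_RES, 82 and 85 in KO2, 71 and 101 in KO2_RES, and 4, 3, 2 and 1 in the controls. As CPM these were 2.24 and 2.14 in KO1, 3.09 and 2.6 in KO1_RES, 1.51 and 1.15 in KO2, 1.33 and 1.48 in KO2_RES, and 0.0716, 0.0438, 0.0339 and 0.0177 in the controls. A value of 3 counts or fewer is read here as at the floor, where 3 of the 4 controls lay. The ratio of summed counts against control was 52.8 in KO1 (95% exact interval 28.2 to 112), 69.3 in KO1_RES (37.1 to 146), 31.3 in KO2 (16.6 to 66.4) and 33.9 in KO2_RES (18 to 72.1). These intervals and the floor cover counting error only, because the labels name no molecular identifiers, so several reads may come from 1 molecule. The fitted log2 fold changes, which depend on the few control counts and are no bounds, were 5.64 ± 0.34 in KO1, 6.02 ± 0.34 in KO1_RES, 4.92 ± 0.34 in KO2 and 5.00 ± 0.34 in KO2_RES (± SE). The line 1 libraries all lay above the line 2 libraries for EBF3, whether knockout or rescue, and the controls lay below both. How many of all genes separate the lines like this was not counted, so nothing is read from it. The same holds for the group orders of BARX2 and ZBTB16.

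ZBTB16 was higher in every knockout library than in every control and higher again in the rescue libraries, most of all in line 1. ZBTB16 (ENSG00000109906.9, chromosome 11) was at 2.34 and 2.42 CPM in KO1, 6.89 and 6.67 in KO1_RES, 2.98 and 3.14 in KO2, 3.77 and 4.68 in KO2_RES, and 0.0358, 0.102, 0.254 and 0.124 in the controls. The controls held 2, 7, 15 and 7 counts, so their spread was wide and 1 of them was at the floor. The 8 knockout and rescue libraries held 104 to 352 counts. The ratio of summed counts against control was 18.4 in KO1 (95% exact interval 12.6 to 27.6), 52.6 in KO1_RES (36.6 to 78.1), 23.7 in KO2 (16.5 to 35.4) and 33.1 in KO2_RES (23 to 49.2). The fitted log2 fold changes were 4.18 ± 0.42 in KO1, 5.69 ± 0.42 in KO1_RES, 4.54 ± 0.42 in KO2 and 5.01 ± 0.42 in KO2_RES (± SE). In group order it was highest in KO1_RES, then KO2_RES, KO2, KO1 and control, and the libraries of no neighbouring groups in that order overlapped.

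DACH1 was lost to near the floor in both lines and in both rescues. DACH1 (ENSG00000165659.12, chromosome 13) had 1 and 2 counts in KO1, 1 and 1 in KO1_RES, 1 and 4 in KO2, 2 and 2 in KO2_RES, and 38, 42, 55 and 59 in the controls. Of the 8 knockout and rescue libraries, 7 were at the floor. As CPM they ran from 0.016 to 0.0543, with a mean of 0.0312 ± 0.0139 (SD, n = 8), against 0.68, 0.613, 0.931 and 1.05 in controls 1 to 4, with a mean of 0.818 ± 0.205 (SD, n = 4). The groups did not overlap, as for 5.25% of all genes in this direction. The ratio of summed counts over all 8 libraries was 0.0392 of control (95% exact interval 0.021 to 0.0674), that is, 25.5 times lower (14.8 to 47.5). By group the ratio was 0.0352 in KO1 (0.00719 to 0.104), 0.0286 in KO1_RES (0.00344 to 0.105), 0.0483 in KO2 (0.0155 to 0.115) and 0.0407 in KO2_RES (0.011 to 0.106). At these counts the 4 groups cannot be put in order, and no difference among them was detectable.

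**Figure D2:**
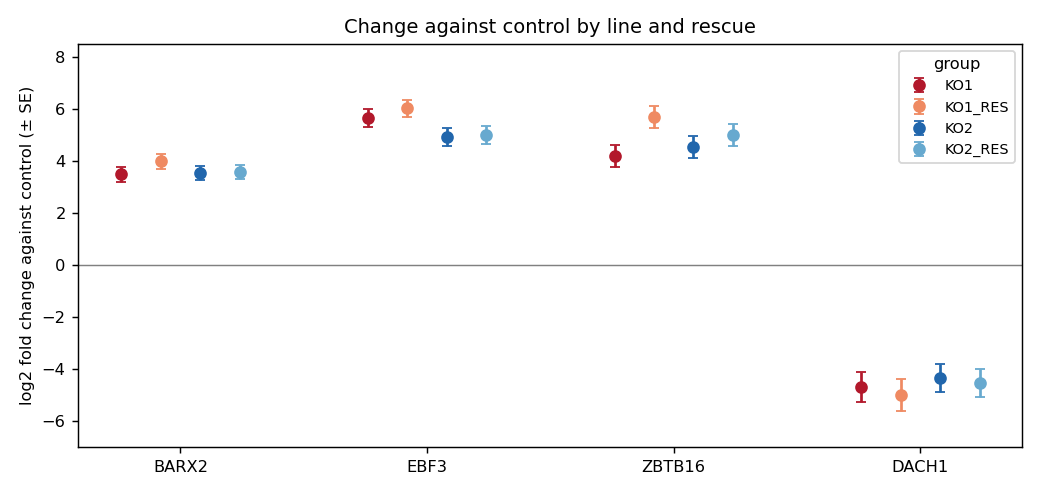
Log2 fold change against control (± SE of the edgeR fit) of the 4 genes in KO1, KO1_RES, KO2 and KO2_RES. The 12 values of BARX2, EBF3 and ZBTB16 lie between 3.48 and 6.02, and the 4 values of DACH1 between -5.01 and -4.34.

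Over all genes, 0.9% were called higher (adjusted p under 0.05) in all 4 comparisons with control and 1.6% lower, and the choice of BARX2, EBF3, ZBTB16 and DACH1 itself placed them in these sets. In single comparisons the share of genes called in either direction was 18.1% for KO1, 18.2% for KO1_RES, 10% for KO2 and 9.62% for KO2_RES. A log2 fold change of at least 3 in all 4 comparisons was reached by 22 genes upward (0.107%), BARX2, EBF3 and ZBTB16 among them, and by 30 genes downward (0.146%), DACH1 among them. The comparisons share their controls, and the counts place the genes and show nothing more.

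Between the lines the tests found no called difference in any of the 4 genes, in a comparison where 12% of all genes were called for KO2 against KO1 and 14% for KO2_RES against KO1_RES. BARX2 differed by 0.05 on the log2 scale between KO2 and KO1 (95% interval -0.66 to 0.75, adjusted p = 0.948) and by -0.41 between KO2_RES and KO1_RES (-1.11 to 0.29, adjusted p = 0.449). ZBTB16 differed by 0.36 (-0.61 to 1.33, adjusted p = 0.67) and by -0.68 (-1.64 to 0.28, adjusted p = 0.346) in the same pairs. These intervals still allow more than a 2-fold difference for ZBTB16 in either pair.

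EBF3 came closest to a line difference. It averaged 1.33 CPM in KO2 and 2.19 in KO1 (log2 difference -0.72, 95% interval -1.45 to 0.00, adjusted p = 0.194), and 1.41 CPM in KO2_RES and 2.85 in KO1_RES (-1.02, -1.74 to -0.29, adjusted p = 0.0654). The second of these passed the threshold in 5 of 20 alternative fits, with an adjusted p of 0.00955 in DESeq2, 0.0262 without controls 1 and 2, 0.0236 without controls 3 and 4, 0.0481 without control 1 and 0.0448 without control 4. Across all 20 fits its adjusted p ran from 0.00955 to 0.468. DACH1 differed by 0.37 between KO2 and KO1 (95% interval -1.35 to 2.10, adjusted p = 0.834). At 1 to 4 counts this interval is too wide to tell lines apart, and it may still be narrower than the counting error.

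After HKDC1 was restored, all 4 genes remained apart from control, and no rescue library overlapped a control. Rescue and knockout libraries of the same line and number were set side by side, with HKDC1 itself 5.56 to 12.6 times higher in the rescue. DACH1 in rescue differed from knockout by -0.25 ± 0.59 on the log2 scale over both lines (95% interval -1.56 to 1.06, adjusted p = 0.994). In that comparison 2 genes in all, or 0.00973%, were called. The choice placed DACH1 low in rescue as in knockout, so this value is a description. At 1 to 4 counts per library its SE and interval may be too narrow and are no bounds. For the other genes staying high in rescue was part of the choice, and their values are a description too. BARX2 in rescue was 1.33 and 1.55 times its knockout level in line 1, and 1.02 and 1.07 times in line 2. For EBF3 the ratios were 1.38 and 1.21 in line 1, and 0.883 and 1.28 in line 2. For ZBTB16 they were 2.95 and 2.75 in line 1, and 1.27 and 1.49 in line 2.

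The log2 difference of ZBTB16 between rescue and knockout was 1.51 ± 0.45 in line 1 and 0.47 ± 0.44 in line 2, and neither was called (adjusted p = 0.384 and 1). Over both lines the ZBTB16 difference was 0.99 ± 0.31 (95% interval 0.30 to 1.68, adjusted p = 0.563). It was not called here, but was called in 2 of 20 alternative fits, with a lowest adjusted p of 0.000303. The choice asked ZBTB16 to stay high in rescue, so this value is a description. Of all genes, 10.8% were higher in rescue in 4 of 4 pairs, as BARX2 and ZBTB16 were. Whether the rescue step acted differently in the lines was tested as a difference of differences, line 2 minus line 1. It was -1.04 ± 0.62 for ZBTB16 (95% interval -2.41 to 0.32), -0.46 ± 0.45 for BARX2, -0.29 ± 0.46 for EBF3 and 0.10 ± 1.16 for DACH1, each with an adjusted p of 1. By edgeR's quasi-likelihood test 0 genes (0%) were called in that comparison, against 598 genes at an unadjusted p under 0.05 and 33 genes called by DESeq2. HKDC1 RNA itself was above control in both rescues (KO1_RES 3.17, adjusted p = 1.63e-05; KO2_RES 1.87, adjusted p = 0.000796). It was lower in KO2_RES than in KO1_RES (-1.3, adjusted p = 0.0105), a call lost without KO1_RES number 2 (-1.14). The lines thus also differed in how far HKDC1 RNA was raised, and the part of HKDC1 in the ZBTB16 values was not tested.

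**Figure D3:**
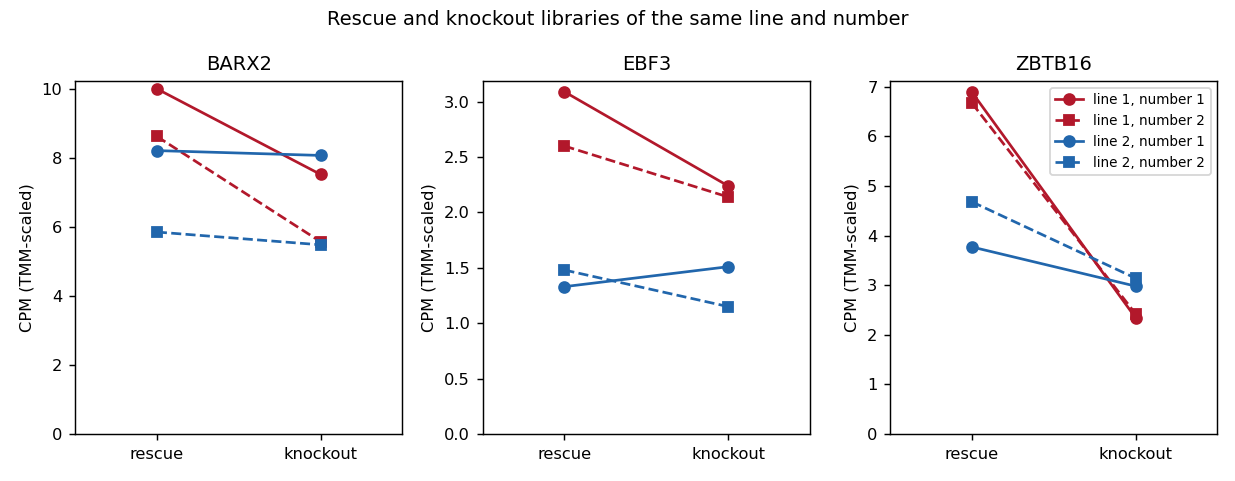
TMM-scaled CPM of BARX2, EBF3 and ZBTB16 in rescue (left) and knockout (right) libraries, joined by line and number. ZBTB16 is 2.75 to 2.95 times higher in rescue in line 1 and 1.27 to 1.49 times in line 2, while BARX2 and EBF3 in line 2 are between 0.883 and 1.28 times their knockout level.

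BARX2 also differed by library number. It was lower in number 2 than in number 1 in 4 of 4 groups, at 0.741 of the level in KO1, 0.859 in KO1_RES, 0.68 in KO2 and 0.713 in KO2_RES. The log2 difference was -0.43 ± 0.12 (95% interval -0.69 to -0.17, adjusted p = 0.0266), in a comparison where 20% of 19766 genes were called, 10.2% lower. Of the 20559 genes of the fit over all libraries, 21.1% were lower in number 2 in 4 of 4 groups. The call was lost on leaving out KO1_RES number 1 (adjusted p = 0.0576), KO1_RES number 2 (0.0572), KO2 number 1 (0.118), KO2 number 2 (0.106), KO2_RES number 1 (0.0569) or KO2_RES number 2 (0.0517). EBF3 differed by -0.14 ± 0.19 (adjusted p = 0.625) and ZBTB16 by 0.09 ± 0.14 (adjusted p = 0.676). DACH1 did not pass the filter on low counts in these 8 libraries. In the knockout and rescue libraries the number runs with the genotype field. HKDC1 RNA followed the titles: it was higher in rescue than in knockout in 4 of 4 pairs made by title, whereas number 2 against number 1 differed by -0.09 on the log2 scale (adjusted p = 0.744). What the number stands for in the BARX2 values was not tested.

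Counts of calls in gene lists are to be read beside the 18.1% of all genes called in KO1 and the 10% called in KO2. The relatives of EBF3 were not called in either knockout line, but EBF1 and EBF4 moved in parts of the series. EBF1, a close relative needed for B cell development, was at 11.7 and 11.4 CPM in KO1, 10.9 and 11.9 in KO1_RES, 5 and 5.61 in KO2, and 6.51 and 7.42 in KO2_RES, against 0, 0.0292, 4.27 and 4.36 in controls 1 to 4. All 8 knockout and rescue libraries lay above all controls, but the controls themselves divided, with 0 and 2 counts in controls 1 and 2 and 252 and 246 in controls 3 and 4. EBF1 did not pass the test (KO1 2.42 ± 1.22, adjusted p = 0.198; KO2 1.3 ± 1.23, adjusted p = 0.569; ± SE). With no filter on low counts it was called at nearly the same size and a smaller SE (KO1 2.41 ± 0.26, adjusted p = 1.82e-18; KO2 1.29 ± 0.26, adjusted p = 3.28e-05). Without controls 3 and 4 the values were 9.30 (adjusted p = 1.03e-06) and 8.18 (2.83e-06), and without controls 1 and 2 they were 1.43 (0.000581) and 0.29 (0.807). EBF3 held 1 to 4 counts in every control.

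EBF4, another member of the family, was called in opposite directions in the rescues of the lines. It was at 0.235 and 0.226 CPM in KO1_RES and 1.57 and 5.31 in KO2_RES, against 0.877, 1.14, 0.915 and 1.37 in the controls (KO1_RES -2.21, adjusted p = 0.0196; KO2_RES 1.68, adjusted p = 0.0336). The line difference was called in the rescues (3.89, adjusted p = 0.00212). The call in KO2_RES rests on its number 2 library, without which it was 0.55 (adjusted p = 0.518), and was lost in 10 of 20 alternatives, 8 of them leaving out a single library. With number as a replicate block it was 1.08 (adjusted p = 0.114). The call in KO1_RES was lost without its number 1 (0.135) or number 2 (0.13). EBF2 had at most 1 count in any library. Of 5 genes listed as EBF and ZNF423 relatives, EBF1 and EBF4 were the 2 tested.

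Of 32 genes listed as BAR or NK-like homeobox relatives of BARX2, 14 were tested, and 3 were called higher and 0 lower in KO1, a share near that over all genes. In KO2 3 were called higher and 0 lower by edgeR, against 6 in either direction at an unadjusted p under 0.05, and 3 higher and 1 lower by DESeq2. The highest log2 fold changes among them were 2.30 in KO1 and 2.16 in KO2. Their median log2 fold change was 0.72 in KO1 and 0.86 in KO2, beside -0.02 and 0.00049 over all genes. MSX2, a homeobox repressor of bone and tooth development, was the 1 gene called in both lines. It was at 0.96 and 0.793 CPM in KO1, 0.313 and 0.565 in KO1_RES, 1.08 and 1.3 in KO2, 1.39 and 2.04 in KO2_RES, and 0.34, 0.453, 0.119 and 0.142 in the controls (KO1 1.72, adjusted p = 0.0315; KO2 2.16, adjusted p = 0.0159). The KO1 call was lost without control 4 (0.0628), KO1 number 1 (0.197), KO1 number 2 (0.107) or KO2 number 1 (0.0501), and the KO2 call without KO2 number 1 (0.0796) or number 2 (0.107).

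BARX1, the closest relative of BARX2 and a factor of stomach development, was at 0.3 CPM in KO1, 0.236 in KO1_RES, 0.343 in KO2 and 0.407 in KO2_RES, against 0.096 in the controls (KO1 1.60, adjusted p = 0.0546; KO2 1.80, adjusted p = 0.0452). The KO2 call was lost in 14 of 20 alternatives, with an adjusted p of up to 0.447, among them number as a replicate block (0.0758). DLX1 and DLX2, paired homeobox genes of forebrain and jaw development, were called in KO1 (2.30, adjusted p = 0.0106, and 1.75, adjusted p = 0.00928), and both calls were lost without KO1 number 1 (0.177 and 0.105). They were not called in KO2 (0.93, adjusted p = 0.309, and 0.90, adjusted p = 0.17). DLX1 and DLX2 were chosen after their values were seen.

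Within the network of DACH1, 2 partners were lower in line 1 than in line 2. Of 16 genes listed for the DACH, EYA and SKI families and their partners, 10 were tested, 2 were called lower in KO1, with medians of -0.07 in KO1 and -0.09 in KO2. By edgeR 0 were called in KO2, against 2 at an unadjusted p under 0.05 and 1 by DESeq2. EYA4, a phosphatase and transcriptional coactivator, was at 0.512 and 0.606 CPM in KO1, 0.176 and 0.198 in KO1_RES, 30.4 and 31.7 in KO2, 34.1 and 38.7 in KO2_RES, and 25.6, 24.3, 35.5 and 37.5 in the controls. EYA4 was thus nearly lost in line 1 (KO1 -5.78, adjusted p = 1.53e-06) and near control in line 2 (KO2 0.01, adjusted p = 0.975), and the line difference was called (KO2 against KO1 5.80, adjusted p = 1.91e-06).

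DACH2, the paralogue of DACH1, was also low in line 1 and near control in line 2. It was at 0.528 and 0.676 CPM in KO1, 0.313 and 0.311 in KO1_RES, 2.33 and 2.86 in KO2, 2.19 and 4.55 in KO2_RES, and 1.47, 1.8, 2.98 and 3.74 in the controls (KO1 -2.05, adjusted p = 0.0115; KO2 0.06, adjusted p = 0.95; KO2 against KO1 2.11, adjusted p = 0.0207). The KO1 call was lost without KO1 number 1 (0.118) or number 2 (0.0702), and the line difference without KO1 number 1 (0.152), KO1 number 2 (0.0906), KO2 number 1 (0.0545) or KO2 number 2 (0.101). In the rescues the line difference was 3.43 (adjusted p = 0.00214) and stayed called on leaving out any 1 library. EYA4 was chosen after its values were seen.

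The BTB zinc finger genes, relatives of ZBTB16, gave 2 calls higher and 2 lower in KO1, and 2 higher and 3 lower in KO2, of 40 tested among 45 listed. By edgeR 0 were called in both lines, against 3 at an unadjusted p under 0.05 and 1 by DESeq2. Their medians were 0.02 in KO1 and 0.03 in KO2. ZBTB20, a repressor of alpha-fetoprotein in adult mouse liver, had the lowest adjusted p among them in KO2 (-1.47, adjusted p = 0.000393) and differed between lines (KO2 against KO1 -1.14, adjusted p = 0.00213). It was chosen after its values were seen. Among these relatives the log2 fold changes ran from -0.88 to 0.77 in KO1 and from -1.47 to 0.97 in KO2. ZBTB16, at 4.18 and 4.54, was chosen by these differences, so nothing is read from its distance to the relatives.

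**Figure D4:**
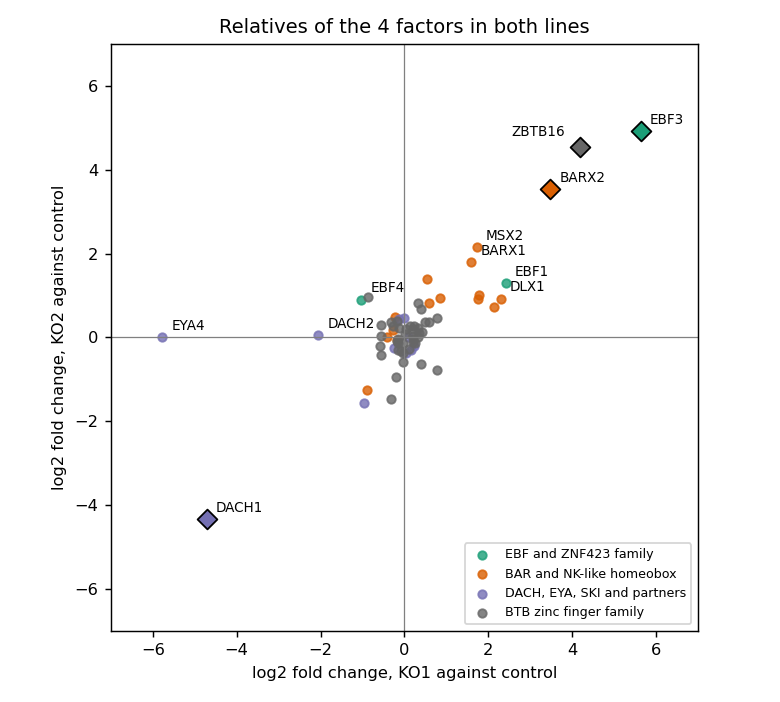
Log2 fold change against control in KO1 (horizontal) and KO2 (vertical) of tested relatives of the 4 factors, coloured by list, with the 4 factors as diamonds. Most BTB zinc finger genes lie near 0 on both axes. MSX2, BARX1, EBF1 (2.42 in KO1 and 1.30 in KO2) and DLX1 (2.30 and 0.93) are among the relatives to the upper right, and EBF1 was called in neither. EYA4 and DACH2 are low in KO1, at -5.78 and -2.05, and near 0 in KO2.

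Genes through which the 4 factors are known to act were counted in the same way. Of 21 corepressor genes, 20 were tested, 2 were called higher and 1 lower in KO1, with medians of 0.25 in KO1 and 0.01 in KO2. By edgeR 0 were called in KO2, against 4 at an unadjusted p under 0.05 and 1 by DESeq2. Of 22 genes known to respond to glucocorticoids, listed because ZBTB16 is one, 21 were tested, 3 were called lower in KO1 and 2 lower in KO2, with medians of 0.11 in KO1 and -0.19 in KO2. Those called in KO1 were PDK4 (-4.12, adjusted p = 0.00331), TSC22D3 (-0.515, adjusted p = 0.0201) and NR3C2 (-0.646, adjusted p = 0.0315). Those called in KO2 were ANGPTL4 (-1.14, adjusted p = 0.034) and ZFP36 (-0.851, adjusted p = 0.0468). FKBP5, a chaperone cofactor and standard readout of the glucocorticoid receptor, was not called (KO1 0.47, adjusted p = 0.19; KO2 0.28, adjusted p = 0.515). It was at 55 CPM in KO1, 64.6 in KO1_RES, 48.1 in KO2 and 53.7 in KO2_RES, against 39.7 in the controls. FKBP5 and these called genes were chosen after their values were seen. Of 12 genes reported downstream of the 4 factors, 10 were tested, 1 was called lower in KO1, with medians of -0.33 in KO1 and -0.10 in KO2. By edgeR 0 were called in KO2, against 1 at an unadjusted p under 0.05 and 0 by DESeq2.

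That 1 gene, CDH6, a cadherin of kidney and fetal tissue reported to respond to BARX2 in ovarian cancer cells, was at 0.0277 CPM in KO1, 0.0196 in KO1_RES, 1.69 in KO2 and 2.36 in KO2_RES, against 3.14 in the controls (KO1 -6.68, adjusted p = 0.00043; KO2 -0.89, adjusted p = 0.292). Its line difference was called (KO2 against KO1 5.79, adjusted p = 0.00148). The part of BARX2 in the CDH6 values was not tested. CCND1, the gene for cyclin D1, which DACH1 is reported to repress in breast cancer cells, was at 241 CPM in KO1, 219 in KO1_RES, 268 in KO2 and 235 in KO2_RES, against 292 in the controls (KO1 -0.28, adjusted p = 0.28; KO2 -0.13, adjusted p = 0.704). CCNA2, which ZBTB16 is reported to repress, was at 93 CPM in KO1, 123 in KO1_RES, 120 in KO2 and 105 in KO2_RES, against 127 in the controls (KO1 -0.45, adjusted p = 0.29; KO2 -0.08, adjusted p = 0.895). CDH6, CCND1 and CCNA2 were chosen after their values were seen.

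Calls among the genes beside the 4 on their chromosomes went in both directions. Of the 24 nearest protein-coding neighbours by RefSeq order, 3 on each side of each gene, 17 were tested. Of these 2 were called higher and 3 lower in KO1, and 2 higher and 1 lower in KO2, with medians of -0.18 in KO1 and 0.07 in KO2. That is 5 of 17 in KO1 and 3 of 17 in KO2, in comparisons where 18.1% and 10% of all genes were called. Beside DACH1, 0 of the 4 tested neighbours (PCDH9, MZT1, BORA and DIS3) were called by edgeR or DESeq2 in either line, and 1 had an unadjusted p under 0.05 in KO1 and 0 in KO2. Beside BARX2, the potassium channel gene KCNJ5 was called higher in KO1 (3.77, adjusted p = 0.00488) and not in KO2 (0.43, adjusted p = 0.82), at 0.82 CPM in KO1 and 0.0575 in the controls. TMEM45B was called lower in KO1 (-2.00, adjusted p = 0.0167), a call lost without KO1 number 1 (-1.42). It was below control in KO2 too (-1.5, adjusted p = 0.06), which edgeR did not call. It was called lower in KO1_RES (-4.76, adjusted p = 0.00101) and KO2_RES (-2.06, adjusted p = 0.0218). Its mean was 0.176 CPM in KO1, 0.0239 in KO1_RES, 0.236 in KO2 and 0.161 in KO2_RES, against 0.687 in the controls. Whether its rescue calls hold without single libraries was not tested. ARHGAP32, which adjoins BARX2 on the other side, was at 32 CPM in KO1 and 32.8 in KO2, against 27.4 in the controls, and was not called.

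Beside EBF3, the DNA repair gene MGMT was called lower in both lines (KO1 -0.85, adjusted p = 0.00451; KO2 -0.69, adjusted p = 0.0194), at 11 CPM in KO1, 13.9 in KO1_RES, 12.3 in KO2 and 12.9 in KO2_RES, against 19.8 in the controls. Its KO1 call was lost without KO1 number 1 (0.0571), and its KO2 call without KO2 number 1 (0.209) or number 2 (0.082). MKI67, the proliferation marker, was called lower in KO1 (-0.96, adjusted p = 0.0428), a call lost in 10 of 20 alternatives. Beside ZBTB16, the deubiquitinase USP28 was called higher in both lines (KO1 0.44, adjusted p = 0.0484, lost in 13 of 20 alternatives; KO2 0.74, adjusted p = 0.0079, lost without KO2 number 1 at 0.0873). NNMT, a nicotinamide methyltransferase that lies next to ZBTB16, was called higher in KO2 (2.01, adjusted p = 0.00218) and not in KO1 (-0.45, adjusted p = 0.356), and its line difference was called (KO2 against KO1 2.46, adjusted p = 0.00213). Genes that overlap the 4 on either strand, where they had a matching identifier, had at most 3 counts in any library.

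**Figure D5:**
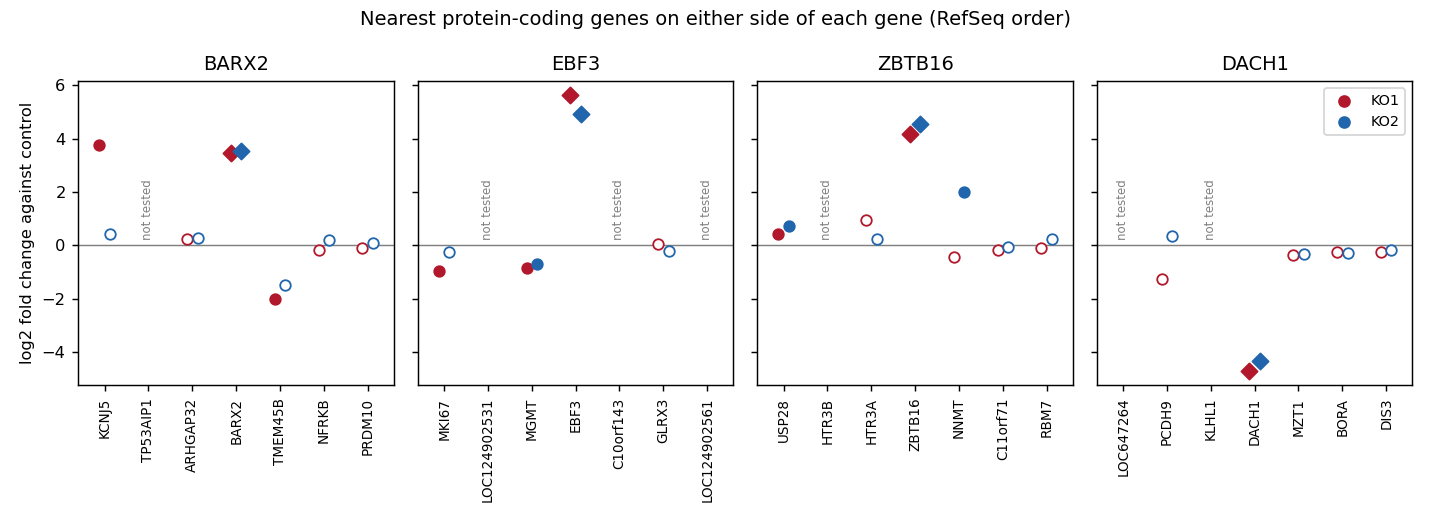
Log2 fold change against control in KO1 (red) and KO2 (blue) of the 3 nearest protein-coding genes on either side of each factor, in RefSeq order, with the factor as diamonds in the middle, filled circles for an adjusted p under 0.05 and open circles for the rest. EBF3, ZBTB16 and DACH1 lie farther from 0 than each of their tested neighbours in both lines, while beside BARX2 (3.48 in KO1 and 3.53 in KO2) KCNJ5 reaches 3.77 in KO1 and 0.43 in KO2. The 4 factors were chosen by these differences, so nothing is read from their distance to the neighbours.

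Across the 12 libraries, the genes with the pattern most like each factor were found by Pearson's r of log2 CPM over 13679 genes with a mean of at least 1 CPM. The points are libraries of 1 cell line, of which the controls form one end, so r is a description. For BARX2 the closest were ZMYM6 (r = 0.974), XK (0.966), DPYD (0.962), M1AP (0.961) and CSAG1 (0.96). For EBF3 they were DPYD (0.985), ZMYM6 (0.978), LSM10 (0.971), SLC19A3 (0.97) and M1AP (0.967). DPYD, which encodes the first enzyme of pyrimidine breakdown, stood highest for EBF3 and was at 24.4 CPM in KO1, 41.8 in KO1_RES, 8.39 in KO2 and 11.2 in KO2_RES, against 0.363 in the controls, with line 1 above line 2 as for EBF3.

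For ZBTB16 the closest were DNAH7 (r = 0.978), GLB1L2 (0.964), AL713998.1 (0.96), GKAP1 (0.953) and FAM89A (0.952). DNAH7, an axonemal dynein heavy chain, was at 3.23 CPM in KO1, 4.18 in KO1_RES, 3.78 in KO2 and 3.84 in KO2_RES, against 1.37 in the controls. For DACH1 they were DSG4 (0.992), CD46 (0.983), DSC2 (0.982), TRDMT1 (0.97) and SUSD1 (0.97). The desmosomal cadherin DSC2 was at 0.107 CPM in KO1, 0.038 in KO1_RES, 0.0431 in KO2 and 0.046 in KO2_RES, against 46.1 in the controls. Among the 4 factors, r was 0.988 for BARX2 with EBF3, 0.949 for BARX2 with ZBTB16 and 0.948 for EBF3 with ZBTB16 over the 12 libraries, and 0.565, 0.56 and 0.424 over the 8 knockout and rescue libraries alone.

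Summed markers of muscle, endothelium and blood overlapped between the knockout and rescue libraries and the controls, those of neurons did not, and those of fibroblasts lay below every control in line 1 and overlapped the controls in line 2. The summed level of 7 fibroblast markers was 5.28 to 5.78 CPM in KO1, 4.4 to 5.91 in KO1_RES, 10.6 to 12.3 in KO2 and 9.17 to 11.6 in KO2_RES, against 6.83 to 11.9 in the controls. Of these 7 markers, 6 were tested, with 0 called higher and 2 lower in KO1, and 1 higher and 0 lower in KO2. COL3A1, a fibrillar collagen chain, and LUM, the matrix proteoglycan lumican, were called lower in KO1 (COL3A1 -3.87, adjusted p = 0.00437; LUM -2.67, adjusted p = 0.00987) and not in KO2 (0.52, adjusted p = 0.595; 0.49, adjusted p = 0.569). PDGFRA was called higher in KO2 (1.99, adjusted p = 0.0156) and KO2_RES (1.68, adjusted p = 0.0362) and not in KO1 (0.97, adjusted p = 0.173). The COL3A1 call was lost without KO1 number 2 (0.0561), and the LUM call without KO1 number 1 (0.0735) or number 2 (0.103). The part of these markers in the values of the 4 factors was not tested. The 7 skeletal muscle markers, for a tissue in which BARX2 acts in mice, summed to 2.09 to 4.94 CPM in the 8 knockout and rescue libraries, against 2.27 to 5.18 in the controls, and MYOG and MYF5 had a mean of at most 0.00919 CPM in any group. The 4 endothelial markers measured summed to 0.311 to 1.07 CPM in the 8, against 0.39 to 2.01 in the controls. Of the blood markers LYZ carried the sum (670 CPM in KO1, 335 in KO1_RES, 382 in KO2 and 319 in KO2_RES, against 625 in the controls), while PTPRC, present on all white blood cells, averaged at most 0.0357 CPM and HBB at most 0.0197 in any group.

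The 6 neuronal markers measured summed to 85.6 to 117 CPM in the 8 knockout and rescue libraries, against 73.7 to 83.3 in the controls. SNAP25, SYP and SYT1, vesicle genes that secretory cells also use, held most of this sum. Of 5 tested, 3 were called higher in KO2 and 0 in KO1. SYP was called higher in KO2 (0.437, adjusted p = 0.0338), KO1_RES (0.694, adjusted p = 0.00201) and KO2_RES (0.482, adjusted p = 0.0227). The neuron-restricted RNA-binding genes ELAVL3 and RBFOX3 were called higher in KO2 (ELAVL3 1.78, adjusted p = 0.0449; RBFOX3 4.50, adjusted p = 0.0121) and not in KO1 (-0.14, adjusted p = 0.899; 0.98, adjusted p = 0.675). Whether the calls of SYP, ELAVL3 and RBFOX3 hold without single libraries was not tested. These genes were chosen after their values were seen. RBFOX3 averaged 0.016 CPM in KO1, 0.0141 in KO1_RES, 0.237 in KO2 and 0.208 in KO2_RES, against 0.00812 in the controls, and ELAVL4 averaged at most 0.0721 CPM in any group. The part of these cells or genes in the EBF3 values was not tested.

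Hepatocyte factors and markers, 20 of them measured, summed to 17600 to 29100 CPM in KO1, 20700 to 35300 in KO1_RES, 5790 to 5990 in KO2 and 4750 to 6060 in KO2_RES, against 12600 to 23300 in the controls. The sum was thus below every control in line 2 and overlapped the controls in line 1. The part of these markers in the values of the 4 factors was not tested. APOB, the main protein of low-density lipoprotein, carried much of this sum, at 16000 CPM in KO1, 20600 in KO1_RES, 34 in KO2 and 76.6 in KO2_RES, against 5900 in the controls (KO1 1.44, adjusted p = 0.0597; KO2 -7.44, adjusted p = 0.000258). Without APOB the sum was 7170 to 7560 CPM in KO1, 7050 to 7700 in KO1_RES, 5770 to 5940 in KO2 and 4630 to 6020 in KO2_RES, against 7000 to 17000 in the controls, so line 2 was still below every control. Of 20 tested, edgeR called 1 higher and 6 lower in KO1, and 0 higher and 2 lower in KO2. DESeq2 called 2 higher and 7 lower in KO1, 2 higher and 6 lower in KO2, and 6 alike in both lines. TTR, the thyroid hormone carrier transthyretin, was called lower in KO1 (-7.07, adjusted p = 0.0104; 0.0999 without KO1 number 1 and 0.0986 without number 2) and not in KO2 (-4.36, adjusted p = 0.0539). COL3A1, LUM, PDGFRA, APOB and TTR were chosen after their values were seen. FGB, the fibrinogen beta chain, was the 1 that edgeR called in both lines, at 469 CPM in KO1, 652 in KO1_RES, 136 in KO2 and 136 in KO2_RES, against 3760 in the controls (KO1 -3.0, adjusted p = 0.0165; KO2 -4.79, adjusted p = 0.00474). Single controls ran from 1370 to 6160 CPM for FGB and from 1.6 to 34.1 for TTR. Across 20 alternatives the KO1 value ran from -3.69 to -1.68 for FGB and from -7.98 to -4.02 for TTR. The KO2 value of FGB ran from -5.48 to -3.48. The FGB call in KO1 was lost without KO1 number 1 (0.14) or number 2 (0.113), and that in KO2 without KO2 number 1 (0.063) or number 2 (0.0656). In bulk RNA, fewer cells that express a gene and less RNA per cell cannot be told apart, for the 4 factors as for these markers.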

How the data were processed

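The authors deposited raw read counts per gene for each of the 12 libraries, from a stranded mRNA kit per the labels' protocols. Per the submitters' processing notes, STAR 2.6.0b and the GRCh37 build were used, and trimming and filters are not given in the sources used here. The reverse-strand column was used, since its total was 19.8 to 21.1 times that of the other strand, and lines of unassigned reads were left out. Symbols came from a gene name table and GENCODE release 29 by identifier, leaving 4.84% of counts without one.

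Counts were tested in R 4.3.3 with edgeR 4.0.16 (limma 3.58.1) over 5 groups, with filterByExpr, TMM scaling, quasi-likelihood tests and Benjamini-Hochberg adjustment over 20559 genes at a threshold of 0.05 (biological coefficient of variation 25.8%). Number 2 against number 1 was fitted on the 8 knockout and rescue libraries (19766 genes, 12.4%). CPM use TMM-adjusted library sizes. The fits were tested on simulated data. Where numbered libraries were compared across groups, same-numbered ones deviated together (r of 0.212 to 0.445 over 6 pairs of groups and 20559 genes), so a fit with number as a block was run.

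The 4 genes, the gene lists and the tests were chosen with earlier results of these data known. Named are the 4 genes, HKDC1, the family relatives EBF1, EBF2, EBF4, BARX1 and DACH2, the 5 genes most alike to each, the 3 neighbours on either side, and up to 4 genes per list called alike in both lines. Other genes, ALB and the single cell type markers among them, were chosen after their values were seen, and not all are marked where named. As alternatives, the fits were repeated with DESeq2 1.42.0, with RLE scaling, without the filter, on unstranded counts, without either control pair, with the block, with the 8 libraries whose labels match, and without each library in turn. GRCh37 coordinates are not given, and the markers PECAM1 and NEFL, with no matching identifier, were not analysed here. Some genes of the lists are not reported here by name.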

Additional observations from a re-analysis of the deposited data

Results flagged for a closer look

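Reads on the strand opposite to 3 of the genes, which no comparison used, were higher in a knockout or rescue library than in any control. BARX2 had 10 such reads in KO2 number 2, against at most 4 in a control. EBF3 had 6 in KO2 number 1, against at most 5 in a control, and ZBTB16 had 4 in KO1_RES number 1, against at most 2. Beside 404, 82 and 352 reads on the sense strand in those libraries, these counts are small.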

How the results depend on the processing

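The choice of genes fixed the differences of BARX2, EBF3, ZBTB16 and DACH1 from control, so their repeats are no sign of stability. With the 8 libraries whose labels match, ZBTB16 (adjusted p = 0.0664) and DACH1 (0.0676) in KO2 missed the threshold. Number as a replicate block raised the list genes called in both lines to 5, against 2 without it, and no other result of the 4 genes crossed the threshold with it. ZBTB16 in rescue against KO over both lines, not called in the main fit, was called in 2 of 20 alternatives. Counts over all genes moved more. DESeq2 called 3134 genes for KO2 and 3112 for KO2_RES against control, 149 for rescue against KO, 33 for the rescue effect and 10 list genes. Without a filter these were 3385, 3551, 406, 192 and 15. Unstranded counts gave 4 for rescue against KO. Without controls 1 and 2, rescue against KO gave 70 and the lists 9. Without controls 3 and 4, KO2 gave 3886, KO2_RES 3856, KO2 against KO1 3703, rescue against KO 100, the rescue effect 6 and the lists 17. The 8 libraries gave 621 for KO1, 541 for KO1_RES, 90 for KO2, 400 for KO2_RES, 42 for KO2 against KO1, 240 for KO2_RES against KO1_RES, 0 for rescue against KO (1199 in the full set at an unadjusted p under 0.05) and 0 list genes. Leaving out each library in turn gave 1265 to 4193 for KO1, 1333 to 4141 for KO1_RES, 530 to 2331 for KO2, 780 to 2102 for KO2_RES, 854 to 2775 for KO2 against KO1, 1160 to 3204 for KO2_RES against KO1_RES, 2 to 4 for rescue against KO, 0 to 1 for the rescue effect, 1471 to 3962 for number 2 against number 1 and 0 to 7 list genes. Only uncalled values changed sign. DACH1 in KO2 against KO1 was -0.019 unstranded and -0.60 to 1.16 without single libraries. Its rescue against KO was 0.69 with the 8 libraries and -0.57 to 0.24 without single ones, and its rescue effect was -0.16 and -0.70 to 1.07. BARX2 in KO2 against KO1 ran from -0.24 to 0.30. The causes were not tested. Depth limits DACH1 outside the controls and EBF3 in them, at 1 to 4 counts per library. For DACH1 the SEs and intervals of the fit among knockout and rescue groups may therefore be too narrow.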
